A study of Oryza sativa with 35 samples.

Results

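The genes described are 8 rice genes of photosynthesis and photorespiration, taken from 17905 genes that are named by a probe set of 1 gene on the array. They are RBCS and ALDP of the Calvin cycle, GDCSH of photorespiration, LFNR1 and ndhM of electron transport, and PSB28, LHCB3 and CAB2R of photosystem II and its antenna. Each gene was read at its brightest probe set, except ALDP, which was read at the probe set that the selection rule names, the dimmest of 3. LHCB3 is listed under the symbol RCABP69 in the annotation. Total RNA of Oryza sativa cultivar Nipponbare, grown on soil in an irrigated greenhouse with added artificial light, was hybridised to 35 single-colour Affymetrix arrays at the heading stage. No genotype or treatment differed between the 14 groups, which are organs and parts of organs. There were 3 arrays for each of 10 groups: flowers that had not reached anthesis, panicle branch, node I and node II, both ends of internode I (the uppermost stem segment, with a top and a base), 3 segments of the flag leaf blade (tip, middle, base) and the upper end of its sheath. The lower end of that sheath had 2 arrays. Whole blades came from the flag leaf, leaf 2 and leaf 4, numbered downwards from the flag leaf, with 1 array for each leaf. The labels speak of biological repeats without saying whether each came from a plant of its own, so a p-value here covers only the variation among these arrays.

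In the light reactions, antenna proteins such as LHCB3 and CAB2R pass excitation to photosystem II, and electrons then travel through the cytochrome complex, plastocyanin and photosystem I to ferredoxin and, by the enzyme LFNR1, to NADP. The Calvin cycle spends that reducing power on fixing carbon dioxide with Rubisco, whose small subunit is RBCS. Rubisco also takes up oxygen, and photorespiration recovers the carbon through peroxisomal glycolate oxidase and the mitochondrial glycine decarboxylase complex, of which GDCSH is the H protein. In a grass at heading, the blades, sheaths, exposed stem and panicle branches are green, whereas nodes are dense junctions of vascular tissue and the internode base is enclosed by the sheath.

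Levels are quantile-normalised log2 signals, and differences are log2 differences ± SE from limma's linear model over 32 arrays of 11 replicated groups. A difference passed the test at a Benjamini-Hochberg adjusted p under 0.05, adjusted over 38673 probe sets, and at least a 2-fold change. All 8 genes passed the filter on dim probe sets. Levels of different probe sets are not set against each other, and the number of arrays limits the precision. Replicate arrays correlated at r = 0.864 to 0.951 across probe sets, lowest for the sheath base. All 8 flower MADS genes measured were highest in the flower and all 3 node transporter genes (Lsi2, Lsi6, HMA2) were highest in the nodes, where Lsi2 reached 12.30 to 12.43 against at most 4.04 elsewhere. The dividing-tissue marker PCNA was between 9.33 and 10.28 in 10 groups and at 6.42 at the internode base. The sheath base arrays stood apart from each other: OSH1, a homeobox gene of stem and shoot apex, was at 4.24 on replicate 1 and 12.66 on replicate 2, against 0.64 to 4.24 at the sheath top and 13.84 to 14.56 in the nodes. Lsi6 went the other way, at 14.67 on replicate 1 and 13.48 on replicate 2. Its range was 13.66 to 13.72 at the sheath top and 14.46 to 14.93 in the nodes. The other node transporter genes lay below the nodes on both sheath base arrays. Lsi2 was at 5.07 and 3.02 (nodes 11.43 to 13.27) and HMA2 at 7.83 and 7.50 (nodes 9.28 to 10.53). The dividing-tissue marker CYCB2;2 was high on both, at 7.28 and 7.96, against 0.03 to 3.52 at the sheath top. PCNA showed no such rise, at 10.16 and 9.75, on either side of its sheath top range of 9.77 to 9.92.

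Across the 11 replicated groups, 7 of the 8 genes had blades, panicle branch and exposed stem high and nodes low, and CAB2R moved little. The order of the other groups differed between genes. The span between the highest and the lowest group mean was 184-fold for RBCS, 163-fold for GDCSH, 60.5-fold for ndhM, 53.8-fold for LFNR1, 21.7-fold for PSB28 and 18.1-fold for LHCB3. CAB2R spanned 2.04-fold. The ALDP span of 11.11 log2 units reached down to signals where its size depends on the treatment of low values. Panicle branch held the highest mean of 6 genes, while LFNR1 was highest at the blade base and ndhM at the blade tip. Node II held the lowest mean of 6 genes, PSB28 was lowest in node I and ALDP at the internode base.

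**Figure D1:**
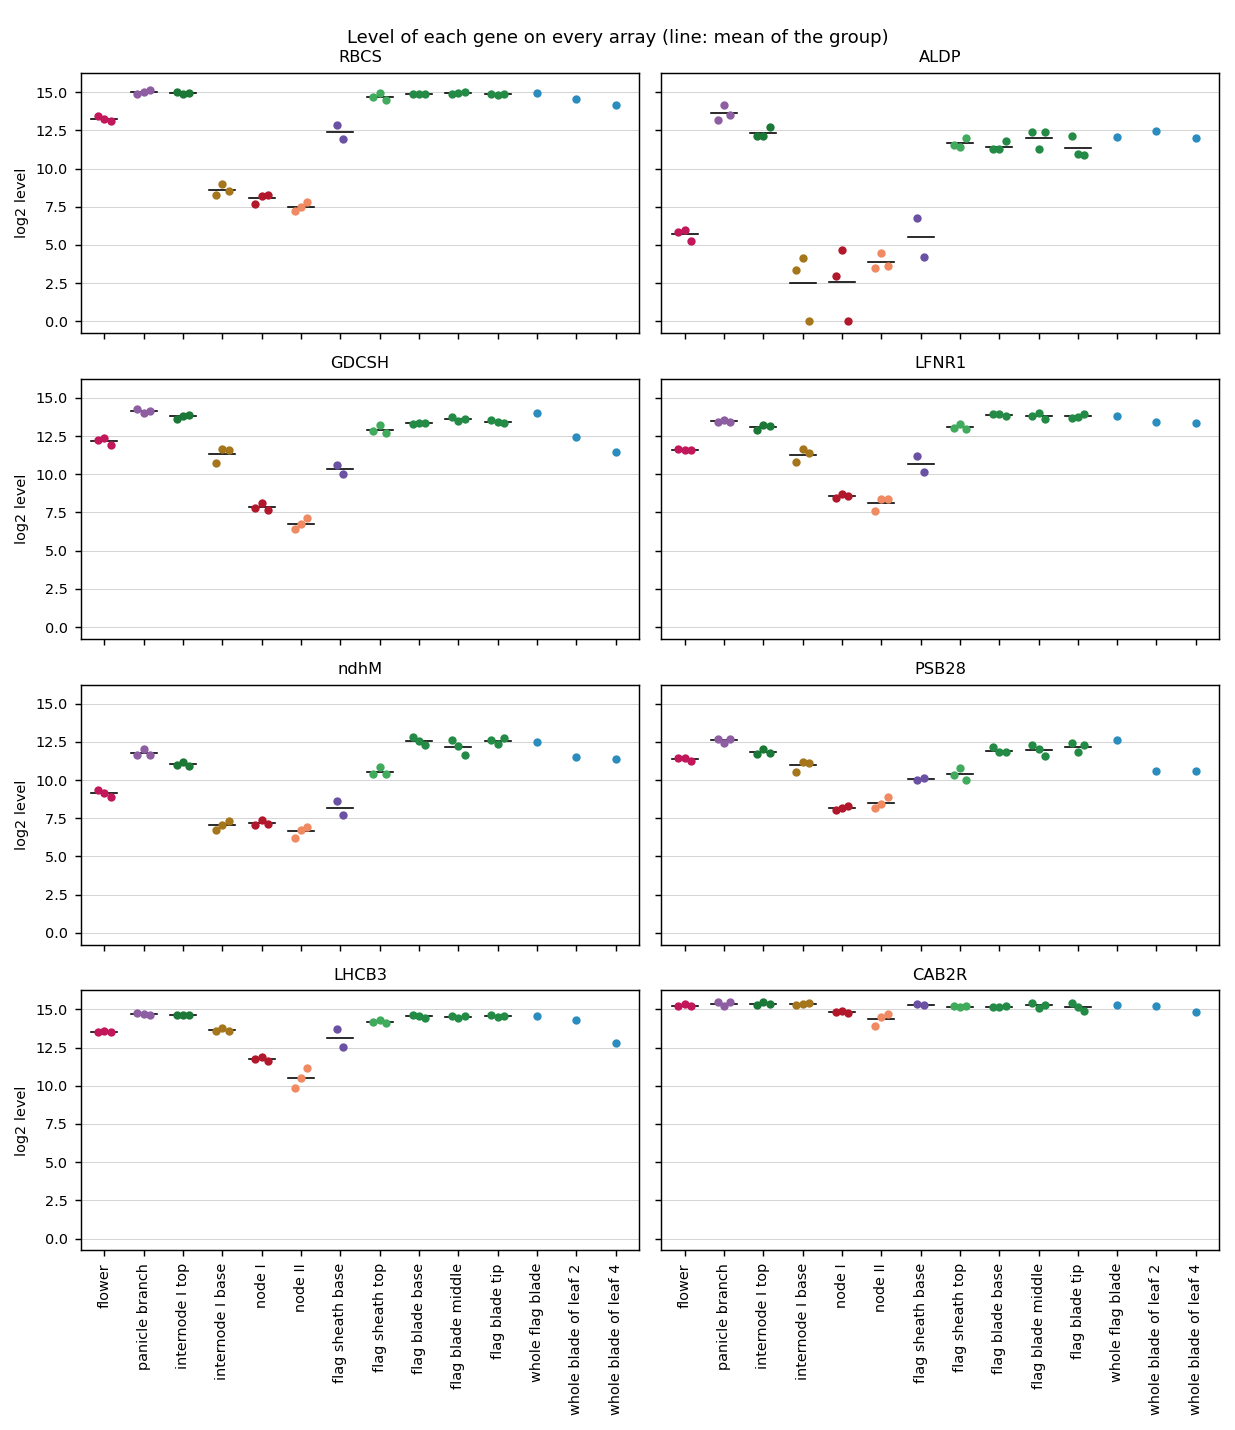
Log2 level (vertical axes) of the 8 genes on each of the 35 arrays by group (horizontal axes), 1 panel a gene; points are arrays and lines are means of groups with 2 or 3 arrays. RBCS, ALDP and ndhM at the internode base overlap node I, GDCSH, LFNR1, PSB28 and LHCB3 lie above the nodes there, and CAB2R stays between 13.88 and 15.46 on every array.

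RBCS was high in the internode top, panicle branch and flag blade. Its levels were 14.99, 14.88 and 14.95 on the 3 arrays of the internode top, 14.90, 15.01 and 15.14 in the panicle branch, and between 14.82 and 14.98 (median 14.88) on the 9 arrays of the flag blade parts. At the internode base they were 8.24, 8.98 and 8.51, in node I 7.71, 8.20 and 8.29, and in node II 7.21, 7.50 and 7.79. Node I overlapped the internode base and node II, and the highest of these 9 low arrays (8.98) lay far below every array of those 3 organs. Flower (13.45, 13.21 and 13.13), sheath top (14.69, 14.94 and 14.45) and sheath base (12.85 and 11.95) filled the range between. In the order of its levels only 4 of 10 neighbouring groups had arrays that did not overlap, the largest step being 3.82 from the sheath base to the internode base. RBCS belongs to a multigene family with near-identical copies, and the suffix of its probe set marks probes that may also match other transcripts. Of the 3 other RBCS probe sets, the second and the third in brightness were also lowest at the internode base and in the nodes, and the last was too dim to test. RBCS1, a second small-subunit gene, was below the filter on dim probe sets.

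ALDP, the aldolase of the chloroplast, was the gene with the widest range and the noisiest low values. Its levels were 13.20, 14.13 and 13.48 in the panicle branch, 12.11, 12.11 and 12.72 at the internode top and 10.87 to 12.41 (median 11.28) on the 9 blade arrays. They were 3.34, 4.13 and 0.00 at the internode base, 2.98, 4.69 and 0.03 in node I and 3.48, 4.48 and 3.65 in node II. Those 9 low arrays lie below 5.83, the level of the filter on dim probe sets, and have no dependable order among themselves. The flower (5.85, 5.95 and 5.28) and the sheath base (6.76 and 4.23) lay near the same level, whereas the sheath top was at 11.57, 11.43 and 12.01.

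The annotation gives ALDP a pair of brighter probe sets that show the same direction with a much smaller size. At the internode base against the top, the named probe set differed by -9.82 ± 0.91, or by -7.70 ± 0.43 on a log2(signal + 16) scale. The brightest differed by -1.23 ± 0.16 and the next by -1.58 ± 0.16, and all 3 passed the test (adjusted p = 7.34e-09, 1.41e-06 and 3.93e-08). The brighter pair never fell below 12.93 on any array, nodes included. The brightest was at 15.53 on all 3 arrays of the blade middle, close to 15.58, the highest value the normalised scale holds. With this brightest one in place of the named probe set, ALDP lost the calls for the sheath base against the top (-0.66, adjusted p = 0.00844) and for flower against panicle branch (-0.99, adjusted p = 2.98e-05), both under 2-fold. The suffixes of these probe sets mark possible matches to more than 1 transcript, and whether they also read other aldolase genes was not tested. The cytosolic aldolase genes FBA1 and FBA3 were highest at the internode base, with means of 14.09 ± 0.29 and 14.92 ± 0.17 (SD, n = 3), and lowest of the replicated groups in the blade parts, at 11.73 to 11.84 and 12.28 to 12.41.

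**Figure D2:**
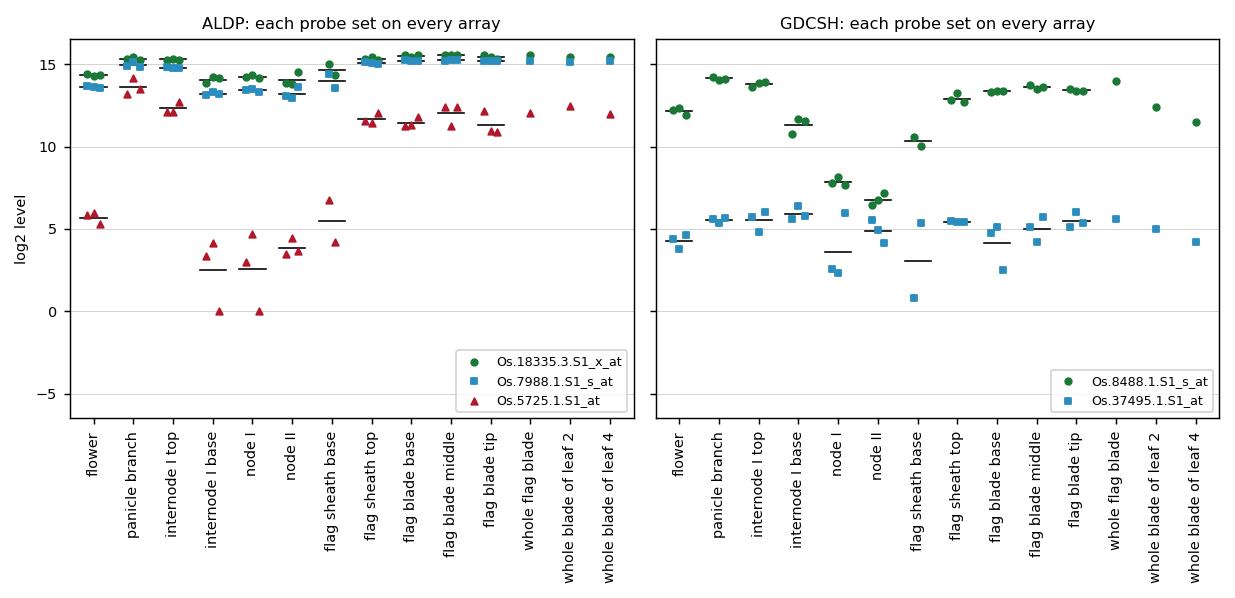
Log2 level (vertical axis) by group (horizontal axes) for the 3 ALDP probe sets (left) and the 2 GDCSH probe sets (right) on every array; points are arrays and lines are group means. The named ALDP probe set falls below 5 on all 9 arrays of nodes and internode base while the other pair stays at or above 12.93, and the second GDCSH probe set stays at or below 6.38 on every array.

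GDCSH followed RBCS in the green groups but not at the internode base. Its levels were 14.24, 14.04 and 14.11 in the panicle branch, 13.64, 13.83 and 13.89 at the internode top and 13.32 to 13.74 (median 13.40) on the blade arrays. The internode base was at 10.75, 11.66 and 11.57, well above node I at 7.78, 8.14 and 7.65 and node II at 6.44, 6.73 and 7.17. The groups did not overlap, and GDCSH had 7 of 10 neighbouring groups apart, the most of the 8 genes. Flower arrays were at 12.21, 12.34 and 11.94, sheath top arrays at 12.80, 13.24 and 12.68, and sheath base arrays at 10.61 and 10.04. The suffix of this main GDCSH probe set marks possible matches to other transcripts. The second probe set annotated to GDCSH was dim, averaging 4.87. It differed by 0.38 ± 0.89 down the internode, which did not pass, and was lower in node I (3.61) than at the internode base (5.91) by -2.30 ± 0.89 (limma, adjusted p = 0.0396), with arrays that overlapped.

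LFNR1, the leaf form of the enzyme that reduces NADP, was highest in the blade parts, at 13.64 to 13.98 (median 13.82) over 9 arrays. The panicle branch arrays read 13.41, 13.56 and 13.40, the internode top 12.91, 13.22 and 13.19 and the sheath top 13.00, 13.28 and 12.99. The internode base was at 10.79, 11.64 and 11.42, the flower at 11.66, 11.58 and 11.58 and the sheath base at 11.17 and 10.16. The internode base overlapped both of the other groups, and all 3 lay clear of node I (8.46, 8.70 and 8.58) and node II (7.58, 8.41 and 8.39).

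The ndhM gene codes for a subunit of the chloroplast NDH complex, which feeds electrons back around photosystem I. Its levels were 11.64 to 12.80 (median 12.52) on the blade arrays, 11.62, 12.01 and 11.65 in the panicle branch and 10.98, 11.19 and 10.89 at the internode top. The internode base was at 6.75, 7.07 and 7.35, overlapping both node I (7.03, 7.36 and 7.11) and node II (6.23, 6.75 and 6.94). Flower was at 9.36, 9.16 and 8.92, sheath top at 10.41, 10.86 and 10.38 and sheath base at 8.65 and 7.74, each apart from its neighbours.

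PSB28, a photosystem II protein known in cyanobacteria from assembly intermediates of that complex, was at 11.56 to 12.41 (median 12.03) on the blade arrays. The panicle branch arrays, at 12.70, 12.44 and 12.70, lay above all of these. The internode top was at 11.73, 12.04 and 11.75 and the internode base at 10.54, 11.20 and 11.13. Only the nodes were far below, at 8.06, 8.17 and 8.29 in node I and 8.17, 8.44 and 8.91 in node II. Its sheath levels were low at both ends, at 10.36, 10.80 and 9.97 at the top and 9.98 and 10.13 at the base, and the flower arrays (11.47, 11.42 and 11.26) lay above both.

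LHCB3, an antenna protein of photosystem II, was at 14.43 to 14.66 (median 14.55) on the blade arrays and at 14.64, 14.65 and 14.64 at the internode top. The internode base was at 13.56, 13.78 and 13.59, the flower at 13.51, 13.61 and 13.49 and the sheath base at 13.69 and 12.54. Node I was at 11.77, 11.88 and 11.65 and node II at 9.85, 10.54 and 11.14, with no overlap. The internode base therefore lay nearer to the green parts than to the nodes.

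CAB2R, another antenna protein gene, was at 15.30, 15.46 and 15.36 at the internode top, 15.28, 15.36 and 15.43 at the internode base and 14.88 to 15.43 (median 15.18) on the blade arrays. Node I was at 14.80, 14.86 and 14.78 and node II at 13.88, 14.47 and 14.71. Among the replicated groups only the nodes lay apart, and the values of the others were close to the top of the scale, 15.58. The single array of the whole blade of leaf 4 read 14.80, within the range of node I. The second CAB2R probe set was lower in nodes than at the internode top by -1.31 ± 0.18 (limma, adjusted p = 4.8e-06), against -0.79 ± 0.14 for the main one. At that second probe set, node and flag blade arrays overlapped.

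Down internode I, from the exposed top to the enclosed base, 5 of the 8 genes fell, where 18.7% of all probe sets tested did. ALDP differed by -9.82 ± 0.91, RBCS by -6.36 ± 0.21 (82.4-fold, adjusted p = 9.2e-16), ndhM by -3.96 ± 0.25 (adjusted p = 2.88e-11), GDCSH by -2.46 ± 0.22 (adjusted p = 3.67e-09) and LFNR1 by -1.82 ± 0.23 (adjusted p = 6.88e-07). Both antenna genes and PSB28 did not pass: LHCB3 differed by -1.0 ± 0.23 and PSB28 by -0.88 ± 0.23, under the 2-fold limit, and CAB2R by -0.02 ± 0.16 (95% interval -0.34 to 0.31). The median over the 8 genes was -2.14, against -0.12 over all probe sets tested. Without replicate 2 of the base, LHCB3 (-1.07, adjusted p = 0.00205) and PSB28 (-1.0, adjusted p = 0.0026) passed too. In bulk samples fewer cells of a type and less RNA per cell cannot be told apart. The secondary wall genes CESA4, CESA7 and CESA9, 3 of 3 markers, were higher at the base by 5.53 to 6.63, and GLK1 and GLK2, regulators of green plastids, were lower by -2.94 and -1.72; their part in the result was not tested.

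Both nodes lay below the internode top for 7 of the 8 genes, where 11.3% of all probe sets were called lower. RBCS differed by -7.16 ± 0.18, GDCSH by -6.47 ± 0.19, LFNR1 by -4.75 ± 0.20, ndhM by -4.12 ± 0.22, LHCB3 by -3.51 ± 0.20 and PSB28 by -3.50 ± 0.20, and ALDP by -9.10 ± 0.79. CAB2R differed by -0.79 ± 0.14 with an adjusted p of 6.01e-05, under the 2-fold limit; it passed on the deposited scale (-1.14) and with array medians set equal (-1.05). The CESA genes were higher in the nodes by 2.06 to 2.72 and GLK1 was lower by -3.18. GLK2 was at 11.79 in node I and 11.53 in node II, against 12.65 at the internode top. The part of these markers was not tested. Against the flag blade 7 of 8 genes, all but CAB2R, were lower in the nodes, where 19.1% of probe sets were, by -3.40 ± 0.15 (LHCB3) to -7.10 ± 0.13 (RBCS) for 6 of them. ALDP was at -8.38 ± 0.59, or at -6.79 on the log2(signal + 16) scale, with its node signals below the filter level. CAB2R differed by -0.61 ± 0.10, or by -1.18 and past the test with the hybridisation controls set equal.

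Between the internode base and node I, 4 of 8 genes were lower in node I, where 12.9% of all probe sets were called lower. GDCSH was lower in node I than at the internode base by -3.47 ± 0.22 (adjusted p = 3.14e-11), PSB28 by -2.79 ± 0.23 (1.42e-09), LFNR1 by -2.70 ± 0.23 (2.63e-09) and LHCB3 by -1.88 ± 0.23 (6e-07). RBCS, at -0.51 ± 0.21 (95% interval -0.93 to -0.08, adjusted p = 0.0484), and CAB2R, at -0.54 ± 0.16 (adjusted p = 0.00664), were lower by less than the 2-fold limit. The ndhM gene differed by 0.11 ± 0.25 (-0.41 to 0.63) and ALDP by 0.07 ± 0.91 (-1.80 to 1.95), and neither passed. The ALDP interval is wide enough to hold a 2-fold difference in either direction. RBCS at its other probe sets gave -0.43 ± 0.31 and -0.56 ± 0.23, which did not pass either. CESA4, CESA7 and CESA9 were lower in node I by -3.07 to -4.10, PCNA was higher by 3.01 and CYCB2;2, another dividing-tissue marker, by 3.61. The node transporter gene Lsi2 was higher by 9.40. GLK1 was at 9.68 in node I and 9.88 at the internode base, and GLK2 at 11.79 and 10.92. The part of these markers in the result was not tested.

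Between the nodes, GDCSH and LHCB3 were lower in node II, 2 of 8 genes where 0.124% of all probe sets were called lower. LHCB3 differed by -1.26 ± 0.23 (adjusted p = 0.018) and GDCSH by -1.08 ± 0.22 (adjusted p = 0.0323). Replicate 1 of node II was the lowest of its 3 arrays for all 8 genes. Both calls were lost without any 1 of 5 arrays, namely node I replicates 1, 2 and 3 and node II replicates 1 and 2; without node II replicate 1 the values were -0.93 for LHCB3 (adjusted p = 0.0632) and -0.91 for GDCSH (adjusted p = 0.131).

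**Figure D3:**
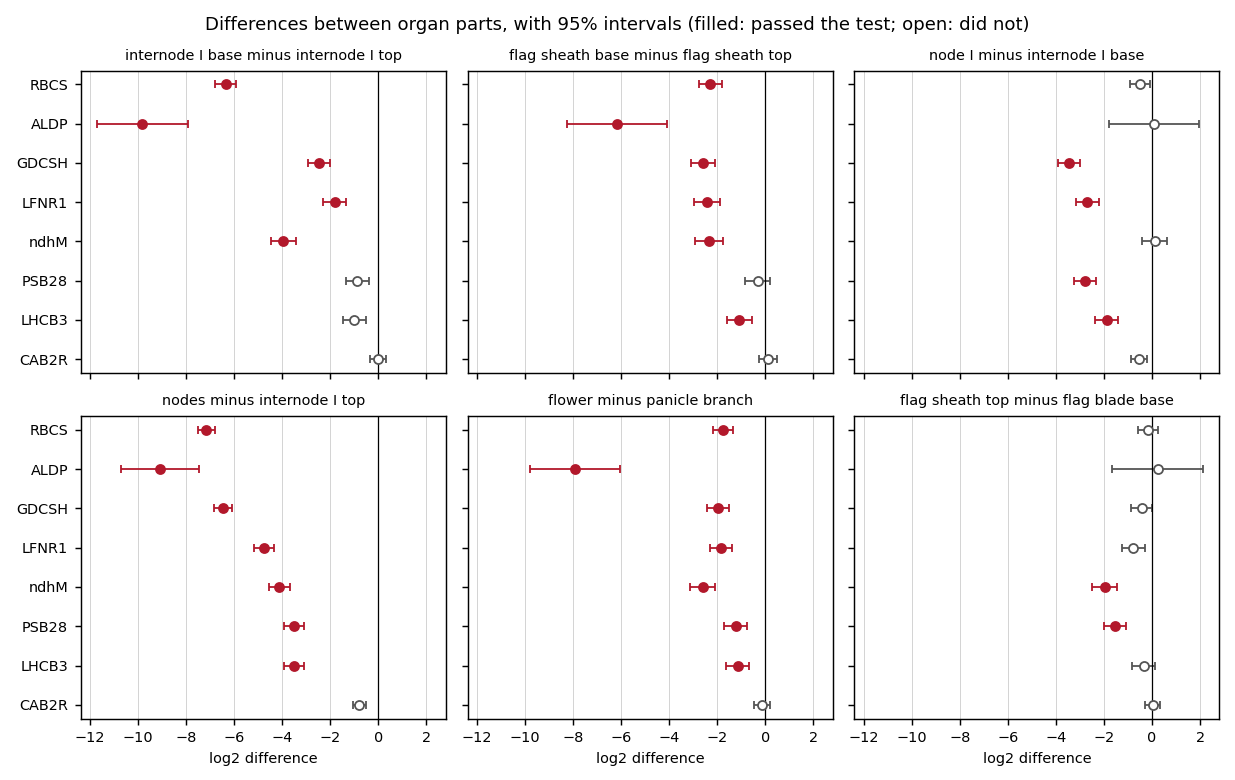
Log2 difference (horizontal axes) with its 95% interval from limma for the 8 genes (vertical axes) in 6 comparisons of organ parts; filled points passed the test and open points did not. RBCS, ALDP and ndhM differ most down the internode and do not pass between internode base and node I, where GDCSH, LFNR1, PSB28 and LHCB3 do.

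Down the flag leaf sheath, 6 of 8 genes fell, where 9.02% of all probe sets did. GDCSH differed by -2.58 ± 0.24, LFNR1 by -2.43 ± 0.26, ndhM by -2.35 ± 0.28, RBCS by -2.29 ± 0.23, ALDP by -6.17 ± 1.01 and LHCB3 by -1.08 ± 0.26, with adjusted p-values from 1.39e-07 to 0.00284. PSB28 (-0.32 ± 0.25) and CAB2R (0.12 ± 0.17) did not pass. Of the 2 sheath base arrays, replicate 2, with the higher OSH1 and the lower Lsi6 level, was the lower for 7 of 8 genes. Without it the differences of RBCS, GDCSH, LFNR1 and ndhM were -1.85, -2.30, -1.92 and -1.90 and still passed, as did ALDP at -4.91, whereas LHCB3 was at -0.51 and did not pass (adjusted p = 0.254). Without replicate 1 LHCB3 differed by -1.66. Each of these fits leaves 1 sheath base array, which is assumed to vary like the arrays of the other groups, since they alone supply its spread. The LHCB3 call was also lost on each of 3 other scalings (-0.75 to -0.89), and when only the 5 sheath arrays were fitted those of LHCB3, RBCS, LFNR1 and ndhM were lost (adjusted p = 0.178, 0.053, 0.0509 and 0.0529). The 3 CESA genes were higher at the sheath base by 4.17 to 6.67, and GLK1 and GLK2 were lower by -1.28 and -1.0; their part was not tested.

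The gradients of stem and sheath were then set against each other in 1 test of their difference, in which 10.3% of all probe sets were called lower. The RBCS gradients were -6.36 down the internode and -2.29 down the sheath, a difference of -4.07 ± 0.31 (adjusted p = 8.3e-09). For ndhM the gradients were -3.96 and -2.35, a difference of -1.61 ± 0.38 (adjusted p = 0.00334). These were 2 of 8 genes. Leaving out sheath base replicate 2 gave -4.52 for RBCS and -2.06 for ndhM, and leaving out replicate 1 gave -3.63 and -1.16, all past the test with the spread again taken from the other groups. GDCSH (0.12 ± 0.33, 95% interval -0.56 to 0.79), LFNR1 (0.60 ± 0.34), LHCB3 (0.08 ± 0.35) and PSB28 (-0.56 ± 0.34) did not pass. ALDP, at -3.65 ± 1.36, did not pass either (adjusted p = 0.0592), but it did on the log2(signal + 16) scale (-2.06, adjusted p = 0.0218), without internode base replicate 2 (-4.47, adjusted p = 0.0216) and without sheath base replicate 2 (-4.91, adjusted p = 0.0197). LFNR1 passed without sheath base replicate 1 (1.11, adjusted p = 0.0236). RBCS at its other probe sets gave -4.04 ± 0.46 and -2.07 ± 0.34, and both passed.

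Along the flag blade, none of the 8 genes passed between base and tip in limma, where 0.468% of all probe sets did in either direction, or between the middle and both ends, where 0.432% did. At an unadjusted p under 0.05 the count was also 0 in both comparisons. The widest 95% interval for base against tip was that of ALDP (-1.77 to 1.98), and RBCS had an interval of -0.41 to 0.44 and LHCB3 one of -0.51 to 0.45. From the blade base to the sheath top, ndhM and PSB28 fell, 2 of 8 genes where 3.42% of probe sets did. The differences were -1.98 ± 0.25 for ndhM (adjusted p = 1.18e-05) and -1.55 ± 0.23 for PSB28 (adjusted p = 6.03e-05), and arrays did not overlap. RBCS at -0.17 ± 0.21 and LHCB3 at -0.34 ± 0.23 did not pass, and LFNR1, at -0.79 ± 0.23, passed on the deposited scale (-1.02, adjusted p = 0.00654). The RBCS probe set that is the third in brightness was lower at the sheath top by -1.07 ± 0.23 (limma, adjusted p = 0.00217) and passed.

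PSB28 was also the 1 gene of 8 that passed between the internode top and the sheath top, higher in the stem by 1.46 ± 0.23 (adjusted p = 6.44e-05), where 5.54% of probe sets were called higher. With the hybridisation controls set equal between arrays, PSB28 was at 0.54 and did not pass (adjusted p = 0.0821); that scaling also shifts the median of all probe sets in this comparison by -0.78. RBCS at its main probe set differed by 0.25 ± 0.21, but the probe set that is the third in brightness was higher in the stem by 1.31 ± 0.23 and passed (limma, adjusted p = 2e-04). GDCSH, at 0.88 ± 0.22, passed without sheath top replicate 2 (1.05, adjusted p = 0.00381).

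The flower was lower than the panicle branch that bears it for 7 of 8 genes, where 15.9% of all probe sets were. ALDP differed by -7.91 ± 0.91, ndhM by -2.61 ± 0.25, GDCSH by -1.97 ± 0.22, LFNR1 by -1.85 ± 0.23, RBCS by -1.75 ± 0.21, PSB28 by -1.23 ± 0.23 and LHCB3 by -1.15 ± 0.23, with adjusted p-values from 2.36e-08 to 0.000284. CAB2R differed by -0.13 ± 0.16. All 8 flower MADS markers were higher in the flower, and their part was not tested. The RBCS probe set that is the third in brightness gave a larger difference of -4.03 ± 0.23. Against the middle of the flag blade 5 of 8 genes were lower in the flower, where 20.7% of all probe sets were: ndhM (-3.00 ± 0.25), LFNR1 (-2.20 ± 0.23), RBCS (-1.67 ± 0.21), GDCSH (-1.46 ± 0.22) and ALDP (-6.34 ± 0.91). LHCB3, at -0.98 ± 0.23, passed without flower replicate 2 (-1.02) or blade middle replicate 2 (-1.03) and on 3 other scalings (-1.02 to -1.62). PSB28 (-0.58 ± 0.23) passed on 2 of those scalings (-1.08 and -1.27).

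The panicle branch carried all 8 genes at levels that did not pass a difference from green leaf or stem. Against the blade middle, limma called 0 of 8 genes, where 13.7% of all probe sets were called in either direction, and 2 of 8 had an unadjusted p under 0.05. The RBCS interval was -0.34 to 0.51 and the LHCB3 interval -0.31 to 0.64. ALDP, at 1.57 ± 0.91, passed on the log2(signal + 16) scale (adjusted p = 0.00862), and RBCS was higher at the probe set that is the third in brightness (1.29 ± 0.23, adjusted p = 0.000208). Against the internode top limma also called 0 of 8, where 3.43% of probe sets were called, and 2 had an unadjusted p under 0.05. Comparisons that share the same arrays, such as flower against panicle branch and panicle branch against internode top, are not independent.

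Over the means of the 11 replicated groups, the 28 pairs among the 8 genes correlated at r = 0.47 (ALDP with CAB2R) to 0.99 (GDCSH with LHCB3), with a median of 0.87. These are descriptions over organs that share arrays and scaling. Among 2342 other named genes, those most like RBCS over the 11 means were RCA (r = 0.995), the gene of Rubisco activase, OsPEX11-4 (0.975) and GLO5 (0.971), a glycolate oxidase. LFNR1 was followed most closely by GLN2 (0.991), the plastid glutamine synthetase that takes up the ammonium released in photorespiration, then FBPase (0.987) and AL1 (0.985). For GDCSH the nearest were LP02 (0.988), CHLH (0.983) and GLN2 (0.981), and for LHCB3 LP02 (0.99), PSAH (0.99) and RCABP89 (0.982). The nearest to ndhM were PNP1 (0.996), FTSH2 (0.992) and OsPRDA1 (0.989), to PSB28 CHLD (0.981), UPD2 (0.974) and LTD (0.97), and to ALDP E37 (0.984), NOL (0.978) and CIPK7 (0.978). CAB2R was matched less closely, by PETE (0.95), the plastocyanin gene, RCABP89 (0.921) and Lip-syn (0.874). By rank correlation over the same means, at most 1 of the 3 nearest genes stayed for any of the 8, so these names depend on the measure of likeness.

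Of the wider pathway, 11 further genes were tested: the antenna gene RCABP89, PSAG and PSAH of photosystem I, PETC of the cytochrome complex, PETE, RCA, GLN2 and the glycolate oxidase family genes GLO1, GLO3, GLO4 and GLO5. Down the internode 8 of 11 fell and none rose, where 18.7% of all probe sets fell, with a median of -2.05 over the 11. The 4 with the largest change were GLO5 (-5.22 ± 0.25), GLO1 (-4.15 ± 0.31), PSAG (-2.67 ± 0.22) and RCA (-2.57 ± 0.25), and PETE (-0.17 ± 0.13), RCABP89 (-0.44 ± 0.18) and GLO3 (1.19 ± 0.51, adjusted p = 0.0596) did not pass. Down the sheath 7 of 11 fell, where 9.02% of all probe sets did, among them GLO1 (-3.47 ± 0.35), GLO5 (-3.07 ± 0.28) and GLN2 (-2.36 ± 0.22). GLO3 rose by 2.67 ± 0.57. In nodes against the internode top 9 of 11 were lower, where 11.3% of all probe sets were. GLN2 was at -5.85 ± 0.17, GLO5 at -4.81 ± 0.22, GLO1 at -4.26 ± 0.27 and PSAH at -3.48 ± 0.22, and GLO3 was higher by 1.54 ± 0.44.

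Between node I and the internode base the wider pathway split as well: GLN2 (-3.35 ± 0.20), RCABP89 (-1.81 ± 0.18) and PSAH (-1.46 ± 0.26) were lower in node I, where 12.9% of all probe sets were. PSAG was higher (1.68 ± 0.22), and 7 did not pass. Among those 7, RCA was at -0.34 ± 0.25, GLO1 at 0.07 ± 0.31 and GLO5 at 0.20 ± 0.25. In the test of stem against sheath gradient GLO5 (-2.15 ± 0.37) and RCA (-1.45 ± 0.37) were called lower, 2 of 11, near the 10.3% of all probe sets that were. In the flower 7 of 11 were lower than in the panicle branch, where 15.9% of all probe sets were, led by GLN2 (-2.39 ± 0.20) and GLO1 (-2.25 ± 0.31). Against the blade middle 6 of 11 were lower, where 20.7% of all probe sets were.

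**Figure D4:**
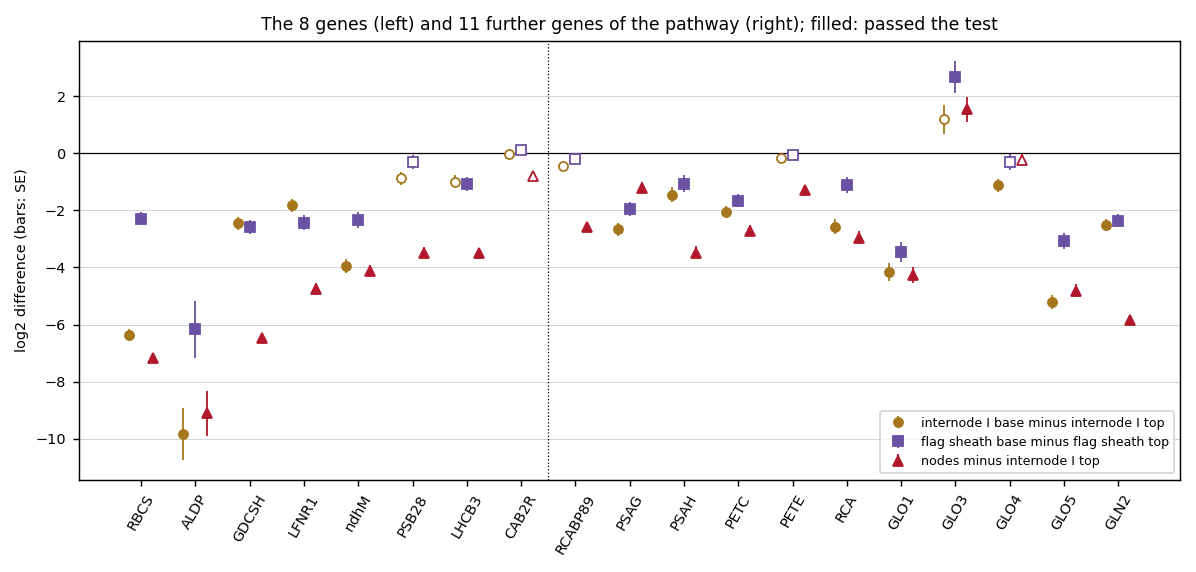
Log2 difference with its SE (vertical axis) for the 8 genes (left of the dotted line) and 11 further genes of the pathway (horizontal axis) in 3 comparisons; filled symbols passed the test. Most genes lie below 0 in all 3, PETE and CAB2R lie near 0 down the internode and the sheath, and GLO3 lies above 0.

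Of the 10 genes of chlorophyll synthesis and breakdown that were tested, 6 fell down the internode, where 18.7% of all probe sets did, with a median of -1.20, among them NOL (-1.94 ± 0.13), PORB (-1.71 ± 0.20), NYC1 (-1.42 ± 0.22) and CHLG (-1.22 ± 0.18). In nodes against the internode top 7 were lower, where 11.3% of all probe sets were, among them CHLH (-3.28 ± 0.19) and CHLI (-3.60 ± 0.75). The size of the CHLI difference rests on dim node signals, with means of 4.17 and 3.65 below the filter level. SGR, which acts in chlorophyll breakdown, was higher by 1.48 ± 0.40. In the flower 7 of 10 were lower than in the panicle branch, where 15.9% of all probe sets were.

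Whole blades were measured on 1 array each, so their differences have no replicate check and no test. In leaf 4 against the whole flag blade, 4 of 8 genes were at least 2-fold lower, where 11.1% of all probe sets tested were. GDCSH read 13.99, 12.41 and 11.46 in the flag leaf, leaf 2 and leaf 4, a difference of -2.53 for leaf 4. PSB28 read 12.59, 10.61 and 10.56, and was at -2.03 in leaf 4 and -1.98 in leaf 2. LHCB3 read 14.56, 14.27 and 12.82, and was at -1.74 in leaf 4. The ndhM difference was -1.08, with 12.46, 11.50 and 11.38 on the 3 arrays.

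ALDP read 12.05, 12.46 and 12.00 in the flag leaf, leaf 2 and leaf 4, a difference of -0.05 for leaf 4, or of 0.83 with the hybridisation controls set equal. RBCS read 14.97, 14.52 and 14.14, a difference of -0.83 for leaf 4. Its probe set that is the third in brightness fell further, reading 12.67, 10.84 and 10.25, whereas the second read 12.28, 11.96 and 11.92. LFNR1 was at -0.47 in leaf 4, or at 0.13 with the hybridisation controls set equal, and CAB2R at -0.48. The second CAB2R probe set fell further, reading 15.00, 14.93 and 13.91 in the flag leaf, leaf 2 and leaf 4. The count of genes at least 2-fold lower in leaf 4 was 6 on the deposited scale and 3 with the hybridisation controls set equal; GDCSH, PSB28 and LHCB3 were at -1.75, -1.15 and -1.14 under the latter. In leaf 2, GDCSH (-1.57) and PSB28 were 2 of 8 genes at least 2-fold lower, where 11.5% of probe sets were. Of the wider pathway, RCA (0.07), PETC (0.05) and PETE (-0.08) were near 0 for leaf 4 minus flag leaf, PSAH was at -1.12, and SGR was at 3.56, with 9.69 in the flag leaf and 13.25 in leaf 4.

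**Figure D5:**
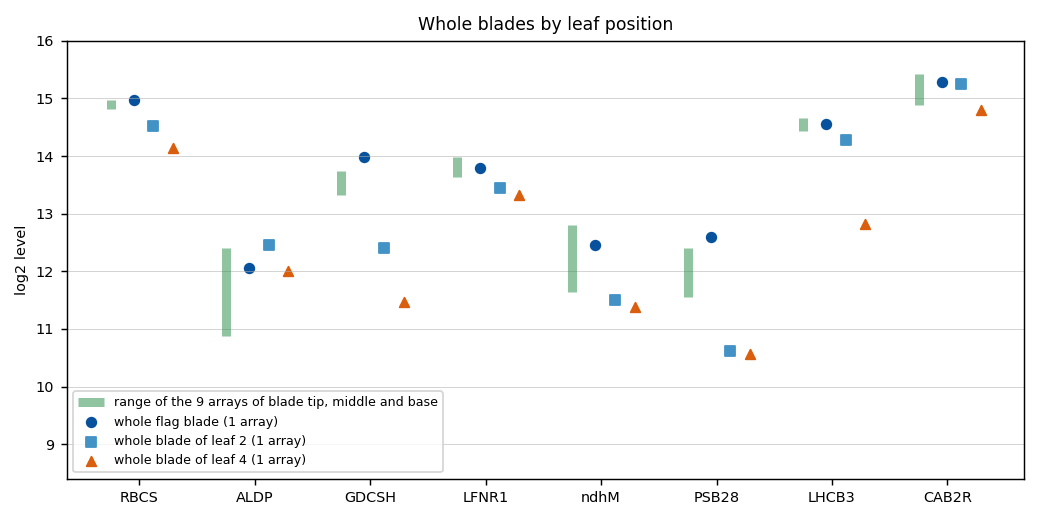
Log2 level (vertical axis, cropped) of the 8 genes (horizontal axis) on the single arrays of 3 whole blades, beside the range of the 9 arrays of flag blade tip, middle and base. GDCSH reads 11.46 and LHCB3 12.82 in leaf 4, below blade ranges of 13.32 to 13.74 and 14.43 to 14.66, and ALDP reads 12.00, within its range.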

How the data were processed

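Gene expression was measured on 35 Affymetrix rice arrays. The deposited values are intensities on a linear scale, scaled by the authors so that the trimmed mean of every array was 500.06 to 500.08, as the values show; the software is not named in these sources. Signals were set to at least 1, taken to log2 from the deposited intensities and quantile normalised. Of 57258 probe sets without controls, 38673 reached 5.83, the overall median, on 3 or more of the 32 replicated arrays and were fitted with limma 3.58.1 in R 4.3.3, with 1 mean per group (21 residual degrees of freedom), in 15 comparisons. Benjamini-Hochberg values were taken over all probe sets tested. The 3 unreplicated whole blades were normalised but not tested, and 0 value columns were left without a sample. The fit and the calling rule were tested on simulated data, drawn on the normalised scale with the same spread in every group. The normalisation and the filter were not tested in this way.

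Names come from the platform annotation, updated by gene number; no coordinates or sequences are given, since no genome of that build was used here. The 8 genes and the lists were chosen with earlier results of these data known. Of the list names 30 had a probe set of 1 gene, 107 had no symbol match, 4 had no such probe set and 12 were dropped because the symbol named another gene or a cytosolic form. The genes named are the 8, the up to 4 called list genes of largest change, exceptions to a statement, and the 3 genes most like each of the 8.

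Alternatives were the scaling, the filter, the offset, the probe sets, the arrays fitted, a replicate block and leaving out each array. Same-numbered arrays of different groups showed little shared deviation (median r = 0.008 over 155 pairs, against -0.005 over 310 differently numbered pairs).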

Additional observations from a re-analysis of the deposited data

Results flagged for a closer look

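The fall of RBCS from top to base was larger in internode I than in the flag leaf sheath by -4.07 ± 0.31 log2 units, and that of ndhM by -1.61 ± 0.38, by limma's test of the difference between the gradients. In the stem RBCS was lower at the base on 3 of 3 arrays by a margin of over 5 log2 units, and ndhM on 3 of 3; in the sheath both were lower on 2 of 2. The sheath gradient rests on 2 base arrays that differ in OSH1 (4.24 and 12.66) and, in the other direction, in Lsi6 (14.67 and 13.48).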

How the results depend on the processing

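Of 120 pairs of gene and comparison, 48 were called, and 33 of these kept the call under each alternative run that could read them. The run without marked probe sets, those whose suffix marks possible cross-matches, read 90 of the 120 pairs. It could not read LHCB3 or CAB2R, whose probe sets are all marked. The fit with the replicate block changed none of the 120; for example 5 of 8 genes were called down the internode and 2 of 8 between the nodes with it, as without it. The numbers give little sign of pairing: 3 of 155 same-numbered pairs correlated above 0.1, against 1 of 310 differently numbered pairs. Between the nodes the count of called genes was 1 on the deposited scale, with hybridisation controls set equal, with log2(signal + 16), with no filter and with the mean of all probe sets of a gene. Without marked probe sets it was 0, a count without LHCB3, whose call could not be tested there. When only the groups compared were fitted it was 0, and leaving out 1 array it was 0 to 2. For internode top against sheath top it was 2 on the deposited scale, with the mean of probe sets and without marked probe sets, 0 with hybridisation controls set equal, and 1 to 2 leaving out 1 array. For panicle branch against blade middle it was 1 with log2(signal + 16) and without marked probe sets. For sheath base against top it was 2 when only those 5 arrays were fitted, which leaves few degrees of freedom. GDCSH, whose main probe set is marked, reversed between the nodes with the mean of its probe sets (0.09) and without marked probe sets (1.26). Down the internode it reversed without marked probe sets (0.38). Both settings read its dim second probe set. Without marked probe sets GDCSH also lost its calls in nodes against internode top (-1.29) and against flag blade (-0.64). Lost there too were sheath base against top (-2.38), flower against panicle branch (-1.27) and flower against blade middle (-0.73). The median of all probe sets shifted by over 0.1 in 4 comparisons on the deposited scale (-0.10 to 0.29), in 5 with array medians set equal (-0.33 to 0.17) and in 10 with hybridisation controls set equal (-0.78 to 0.32). Low ALDP signals and the near-top CAB2R signals limit what their sizes can show.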

Other observations

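FBA2, a cytosolic aldolase gene chosen after its values were seen, was at 14.35 ± 0.09 (SD, n = 3) in the flower and at 6.13 ± 0.76 in the panicle branch, a difference of 8.21 ± 1.32 (limma, adjusted p = 2.27e-05), opposite in direction to the chloroplast gene ALDP. PORA, a protochlorophyllide oxidoreductase of chlorophyll synthesis, was higher at the blade base than at the tip by 1.96 ± 0.33 (limma, adjusted p = 0.00352). It was the 1 of 10 chlorophyll genes that passed there, where 0.468% of all probe sets did in either direction. PORA was also higher in the panicle branch than in the blade middle by 4.25 ± 0.33. In that comparison 2 of the 10 were called higher, where 13.7% of all probe sets were called in either direction. GLO3 of the glycolate oxidase family had its highest mean in node II (14.20) and its lowest mean at the blade base (9.22).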
